A study of Macaca nemestrina with 15 samples.

Results

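The comparison covered the 10 libraries, of 15 in the series, that were labelled pre-treatment or week 18. There were 5 of each, and every one of 5 pig-tailed macaques (*Macaca nemestrina*) gave 1 library to each group. Libraries were assigned by the time point label and paired by the subject label. The animals carried the identifiers Z15228, Z13076, Z15339, Z15303 and Z15408. RNA came from peripheral blood mononuclear cells (PBMCs), the lymphocytes and monocytes of blood. At pre-treatment no islatravir (ISL) had been given, and the labels call this group a control. By the methods, each animal had been given oral ISL weekly, 12 times in all at 30 mg/kg, and week 18 lay 6 weeks after the last, an interval that the dates in the library names do not match. The study had no untreated animals over the same period, so the effect of ISL, the passage of time and repeated sampling cannot be told apart. The question was which genes were still away from their pre-treatment level after the drug was stopped, in either direction, and which had moved the same way in all 5 animals.

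ISL is a nucleoside analogue that blocks HIV reverse transcriptase by preventing its translocation along the template, and oral use in people has been followed by lower lymphocyte counts. B cells carry the antigen receptor, an immunoglobulin held by CD79A and CD79B, and co-receptors such as CD22 that tune its signal. Blood monocytes are phagocytes marked by CD14 and CD33, and in tissues they mature into macrophages, which express lysosomal enzymes such as chitotriosidase. In bulk RNA from PBMCs, fewer cells of a type and less RNA per cell cannot be told apart.

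The 10 libraries held 5886482 to 10379572 counts on genes, with 7909621 to 10379572 at pre-treatment and 5886482 to 8906538 at week 18. Of 28865 features in the table, 12880 passed the low-count filter and were tested, of which 10773 carried a gene symbol. Expression is given as CPM (counts scaled to a common library size) after TMM scaling of the libraries, and a change within an animal as the difference in log2 CPM. Changes were centred on 0, with a median fitted log2 fold change of -0.0046 over all tested features. T-cell, monocyte and B-cell genes were all expressed, as the label PBMC implies, with 21 of 22 T-cell markers and 20 of 21 monocyte markers passing the filter. Of the B-cell markers, *PAX5*, *SPIB*, *CD24*, *FCRL4* and *TNFRSF13C* were not among the tested features. Dates in the library names place the sample labelled week 12 at 56 or 57 days after the first and the sample labelled week 18 at 84 days. Taken as sampling dates, which the sources do not state, these are earlier than the labels, and 84 days are too few for 12 weekly doses and a further 6 weeks. A figure legend of the study also places the last sample earlier than week 18. The time since the last dose is therefore uncertain, and the label week 18 is kept as a name. The animals Z15339, Z15303 and Z15408 shared their dates and the other 2 had dates of their own.

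At week 18, 33 of 47 tested B-cell genes were lower than before treatment at an unadjusted p of 0.05, against 3.78% of all features. None was higher, against 2.07%. The B-cell lists were chosen with earlier results of these data known, so this count is no separate support. *CHIT1* and *TCN2*, from the macrophage list, had the smallest p of the features that were higher. In edgeR's quasi-likelihood fit, with a block for each animal, a single feature had an adjusted p under 0.05 (0.00776% of those tested). It was *IGKV1OR2.108*, an immunoglobulin kappa variable segment, and it fell. A further 30 features with lower and 2 with higher expression had adjusted p-values from 0.05 to 0.1, and 30 of these 32 features had moved the same way in 5 of 5 animals. A small p with the block favours features that moved alike in all animals, so this count is no separate support. At an unadjusted p of 0.05 there were 754 features (5.85%), 487 features with lower expression (3.78%) and 267 with higher expression (2.07%). Without the block, edgeR called 0 features, with 218 (1.69%) under an unadjusted p of 0.05. DESeq2 with the block called 51 (0.246%), of which 47 were lower, and 8 of the 51 had no more than 6 counts in the 10 libraries together. The number of genes called was thus set largely by the method, and the values in each animal are given for that reason.

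**Figure D1:**
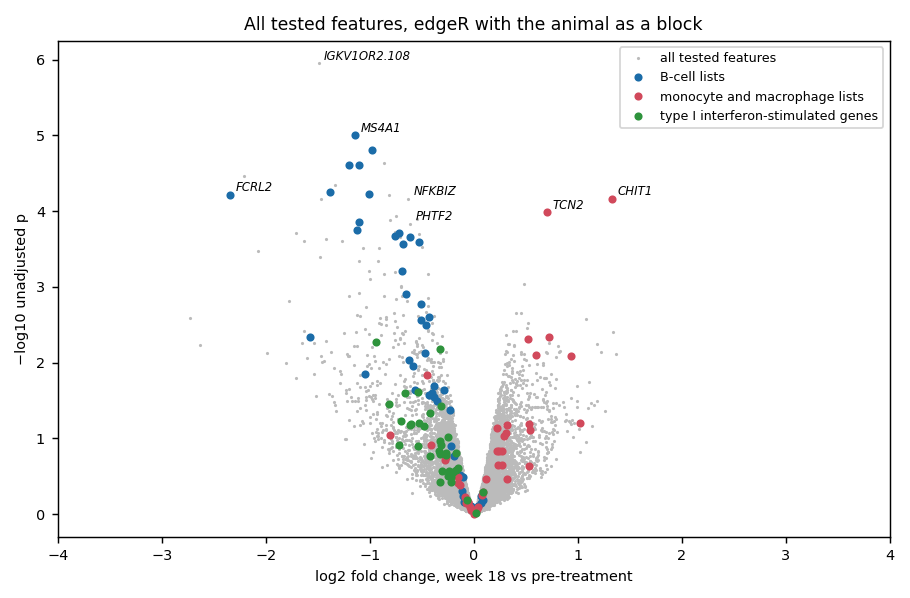
Each point is a tested feature, with the fitted log2 fold change of week 18 against pre-treatment on the x axis and -log10 of the unadjusted p (edgeR, animal as a block) on the y axis. Colours mark the B-cell, monocyte and macrophage, and type I interferon lists. The B-cell lists lie on the left, with 42 of 47 tested genes below 0, and *CHIT1* and *TCN2* are the uppermost points on the right.

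A total of 449 features (3.49%) were lower at week 18 in 5 of 5 animals and 392 (3.04%) were higher in 5 of 5. These counts are a description with no test. The median log2 fold change of the features lower throughout was -0.40, and 59 of them were below -1. For those higher throughout it was 0.29, and 10 were above 1. An unadjusted p under 0.05 was reached by 250 of the 449 and by 137 of the 392. Fewer had moved far in every animal. The change was at least 0.5 on the log2 scale in each of the 5 animals for 17 features that were lower and 4 that were higher. For 26 lower (0.202%) and 17 higher features (0.132%) the 2 groups did not overlap, so that every week 18 library lay beyond every pre-treatment library.

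*IGKV1OR2.108* was at 31.5, 15.5, 25.9, 9.43 and 7.19 CPM before treatment, and at 7.77, 4.76, 13.8, 3.90 and 2.55 CPM at week 18, with animals in the order Z15228, Z13076, Z15339, Z15303 and Z15408, which is kept below. It was lower in all 5 animals, by 0.90 to 1.99 on the log2 scale, although the groups overlapped because the animals differed at the start. The mean went from 17.9 ± 10.5 to 6.55 ± 4.47 CPM (SD, n = 5), and the fitted log2 fold change was -1.49 ± 0.21 (SE, adjusted p = 0.0144, edgeR with the block). The call was lost when Z15228, Z15339 or Z15303 was left out (adjusted p = 0.367, 0.0610 and 0.0646) and without the block (adjusted p = 1). The study describes an entry named IGKV1OR2 as a pseudogene. Some kappa variable segments resemble each other, so reads could have been divided among them in the counting. The kappa constant segment, *IGKC*, was lower in 5 of 5 animals as well, at -0.92 ± 0.21 (log2 fold change ± SE, adjusted p = 0.145), from 0.15 in Z15339 to 1.83 lower in Z15303.

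Surface receptors of B cells were below pre-treatment as a group. Of 20 listed, 17 were tested, all 17 had a negative log2 fold change, 14 had an unadjusted p under 0.05 against 3.78% of all features, and 11 were lower in 5 of 5 animals against 3.49%. None passed the adjusted threshold. The median log2 fold change was -0.62 at week 18, and at week 12, which shares the same pre-treatment libraries, it was -0.91.

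*MS4A1*, which encodes CD20, was at 191, 32.5, 75.3, 42.3 and 44.9 CPM before treatment and at 79.8, 25.6, 37.5, 10.8 and 17.2 CPM at week 18. Each animal was lower, and Z13076, which had the lowest starting level, differed least. The log2 fold change was -1.14 ± 0.19 (SE, adjusted p = 0.0534). *CD22*, an inhibitory co-receptor, had a log2 fold change of -1.11 ± 0.23 (adjusted p = 0.0890) and was lower by at least 0.58 in each. *CD40*, the receptor for T-cell help, and *CXCR5*, which guides B cells to follicles, were lower in 5 of 5 animals by smaller amounts (-0.65 ± 0.17 and -0.46 ± 0.14 on the log2 scale).

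*TNFRSF13B* encodes TACI, a receptor for the survival factors BAFF and APRIL. It was at 35.6, 5.08, 18.7, 4.77 and 5.02 CPM before treatment and at 10.5, 2.44, 10.3, 0.355 and 2.66 CPM at week 18. Its log2 fold change was -1.38 ± 0.26 (adjusted p = 0.0599), and the change was 3.08 lower in Z15303, where only 2 counts remained. The APRIL gene *TNFSF13*, made by myeloid cells, was higher in 5 of 5 animals (0.41 ± 0.18, adjusted p = 0.825).

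The Fc receptor-like genes, which encode immunoglobulin-related receptors found largely on B cells, held the largest difference among the B-cell genes. *FCRL2* was at 3.70, 1.24, 2.51, 1.77 and 2.74 CPM before treatment and at 0.259, 0.366, 0.560, 0.355 and 0.664 CPM at week 18. The groups did not overlap. The log2 fold change was -2.34 ± 0.45 (adjusted p = 0.0599), but it rested on 11 to 36 counts per library before and 2 to 6 after. *FCRLA* (-1.005 ± 0.19, adjusted p = 0.0599), *FCRL3* (-0.50 ± 0.14) and *FCRL5* (-0.62 ± 0.21) were lower in 5 of 5 animals. *FCRL1* was lower in 4 of 5 (-1.13 ± 0.24, adjusted p = 0.0972) and in Z13076 it was 0.08 higher.

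**Figure D2:**
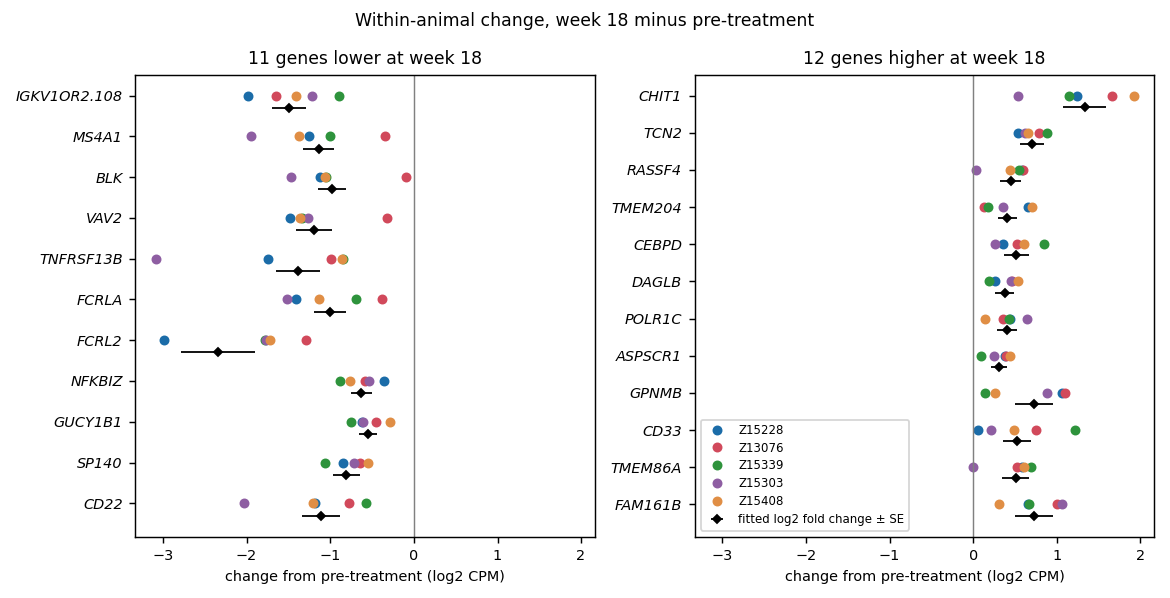
The x axis gives the change from pre-treatment to week 18 in log2 CPM for 11 lower and 12 higher genes from those with the smallest p among those that moved the same way in 5 of 5 animals. Coloured points are animals, and black diamonds with bars are the fitted log2 fold change ± SE. The lower genes are mostly genes of B cells and reach -3.08 (*TNFRSF13B* in Z15303), whereas among the higher genes *CHIT1* reaches 1.92 and most of the others stay under 1.

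Genes that carry the signal of the antigen receptor were also lower. All 18 listed were tested, 16 had a negative log2 fold change, and the median was -0.45. At an unadjusted p of 0.05, 13 were lower, against 3.78% of all features. In 5 of 5 animals 12 were lower, against 3.49%. *CD79A* was at 396, 88.6, 263, 176 and 97.4 CPM before and at 163, 62.7, 191, 86.5 and 89.3 CPM after (-0.68 ± 0.15, adjusted p = 0.102). *CD79B* had a similar log2 fold change of -0.71 ± 0.15 (adjusted p = 0.0972). Both were lower in 5 of 5 animals, by as little as 0.12 and 0.22 in Z15408.

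*BLK*, a kinase of the Src family in B cells, was at 46.7, 10.7, 43.5, 27.5 and 33.3 CPM and then at 21.4, 10.01, 20.8, 9.75 and 15.8 CPM (-0.98 ± 0.17, adjusted p = 0.0534). *VAV2*, an exchange factor downstream of the receptor, was at 17.1, 6.77, 20.4, 8.88 and 12.3 CPM and then at 5.96, 5.37, 7.95, 3.55 and 4.65 CPM (-1.20 ± 0.21, adjusted p = 0.0534). In both genes 4 animals were lower by more than 1 on the log2 scale and Z13076 by 0.10 and 0.32. The adaptors *BANK1* (-0.75 ± 0.16) and *BLNK* (-0.69 ± 0.17), the kinase *BTK* (-0.59 ± 0.21) and the phospholipase *PLCG2* (-0.43 ± 0.12) were lower in 5 of 5 animals. *SYK*, a kinase that myeloid cells also express, was at -0.11 ± 0.11 (adjusted p = 0.925). Over the 47 genes of the 3 B-cell lists (surface receptors, receptor signalling and transcription factors), the median change was -0.50, -0.14, -0.57, -0.59 and -0.48 in the 5 animals. Z13076 thus moved least, and without it edgeR called 17 features in place of 1, all of them lower.

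B-cell transcription factors were less uniform. Of 12 tested, 9 had a negative log2 fold change and 6 were lower at an unadjusted p of 0.05, against 3.78% of all features. In 5 of 5 animals 3 were lower, against 3.49%. *TCF4* was lower in all 5 (-0.61 ± 0.13, adjusted p = 0.0972). *EBF1*, which specifies the B lineage, was lower by 1.39 to 3.04 on the log2 scale in 4 animals and 0.72 higher in Z13076 (-1.57 ± 0.48, adjusted p = 0.536). At week 18 it had only 2 counts in Z15303 and 1 in Z15408. *MEF2C* (-0.53 ± 0.12) and *POU2AF1* (-1.05 ± 0.38) were lower in 4 of 5.

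Among plasma cell genes the pattern was weaker, with 3 of 10 lower at an unadjusted p of 0.05, against 3.78% of all features. In 5 of 5 animals 1 gene was lower, against 3.49%. That gene was *JCHAIN*, which joins IgM and IgA into polymers. It was at 333, 112, 705, 116 and 110 CPM before and at 116, 94.5, 405, 22.7 and 84.0 CPM after (-1.06 ± 0.24, adjusted p = 0.106). The chaperone *MZB1* was lower in 4 of 5 (-0.65 ± 0.26), by only 0.05 in Z15339, and in Z15408 it was 0.27 higher.

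**Figure D3:**
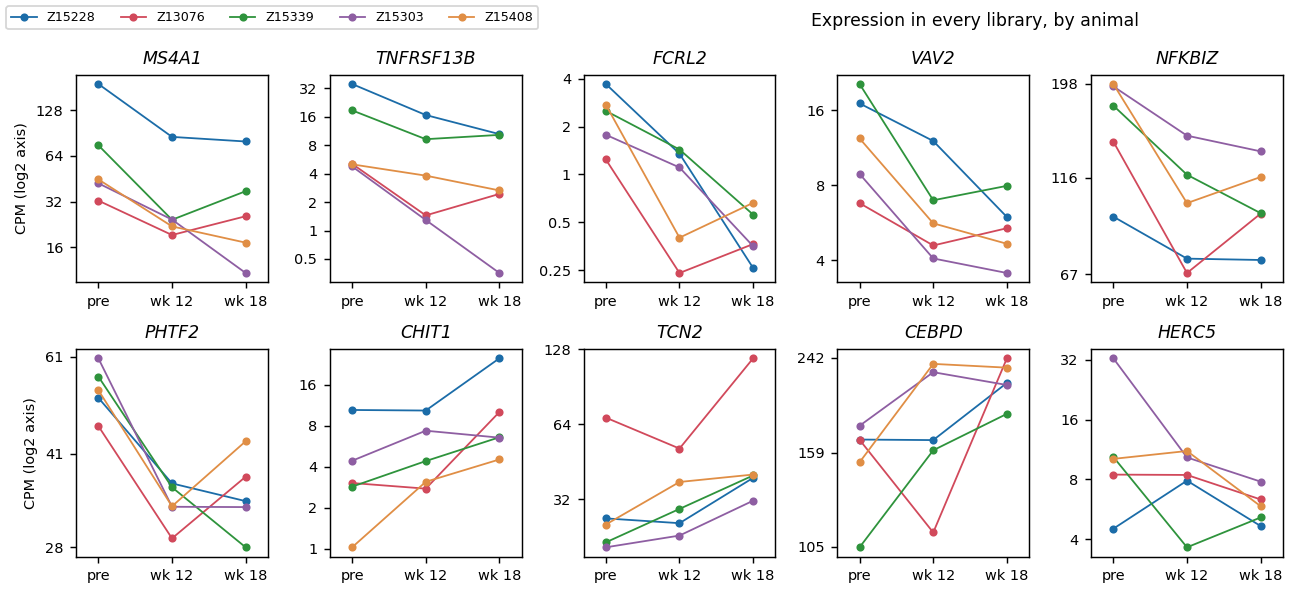
CPM (log2 axis) of 10 genes at pre-treatment, week 12 and week 18, with a line for each animal. In *MS4A1*, *TNFRSF13B*, *VAV2*, *NFKBIZ* and *PHTF2* the week 12 and week 18 libraries both lie below the pre-treatment library of the same animal, whereas *TCN2* is above it in all 5 animals at week 18 and in 3 of 5 at week 12.

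Lower genes outside these lists were spread over several functions. *NFKBIZ*, an inducible nuclear regulator of NF-κB, was at 93.0, 142, 175, 195 and 198 CPM before and at 72.6, 94.6, 94.8, 135 and 116 CPM after. It was lower in 5 of 5 animals, by 0.35 to 0.88 (-0.63 ± 0.12, adjusted p = 0.0599). *PHTF2*, a membrane protein gene, was at 51.6, 45.9, 56.2, 60.6 and 53.2 CPM and then at 33.8, 37.4, 28.0, 33.0 and 43.2 CPM. Its groups did not overlap (-0.61 ± 0.13, adjusted p = 0.0897).

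*GUCY1B1*, a subunit of the nitric oxide receptor guanylate cyclase, was lower by 0.29 to 0.76 (-0.55 ± 0.11, adjusted p = 0.0890). *SP140*, a nuclear body protein of lymphocytes, was lower by 0.55 to 1.07 (-0.81 ± 0.17, adjusted p = 0.0890). *CD300H*, of the CD300 family of myeloid receptors, was lower in 5 of 5 animals (-0.52 ± 0.11, adjusted p = 0.0972), but by only 0.08 in Z15408. *SSPN*, *XKRX* and *PTPN13* were lower by at least 0.92, 0.72 and 0.66 in each animal. Further genes with no overlap between the groups were *PDCD1LG2*, which encodes the PD-1 ligand PD-L2 (-0.70 ± 0.18), *TRIM25*, a ubiquitin ligase of RNA sensing (-0.44 ± 0.12), *DENND3* (-0.44 ± 0.12) and the adaptor *GAB1* (-1.004 ± 0.31), with adjusted p-values from 0.260 to 0.512.

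Members of the NR4A family of immediate early receptors differed in their uniformity. *NR4A3* was at 1.64, 2.37, 1.07, 1.44 and 1.37 CPM before and at 0.259, 0.610, 0.448, 0.532 and 0.111 CPM after, with no overlap. Its fitted log2 fold change of -1.98 ± 0.66 (adjusted p = 0.584) rested on 1 to 5 counts per library at week 18. *NR4A2* was lower in 4 of 5 animals (-0.58 ± 0.19), as was the phosphatase *DUSP5* (-0.75 ± 0.18). Of the 33 immediate early and NF-κB genes tested, 4 were lower and 2 higher at an unadjusted p of 0.05. The shares of all features were 3.78% and 2.07%. *IER2* was higher in 5 of 5 (0.46 ± 0.16). Of 2051 tested features with only an Ensembl identifier, ENSMNEG00000026030 (-0.87 ± 0.15, adjusted p = 0.0534) and ENSMNEG00000038177 (-2.21 ± 0.40, adjusted p = 0.0599) had the smallest p and were lower in 5 of 5 animals.

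Among higher genes, *CHIT1*, which encodes the chitinase chitotriosidase secreted by activated macrophages, came first. It was at 10.5, 3.05, 2.87, 4.44 and 1.03 CPM before treatment and at 25.1, 10.1, 6.61, 6.56 and 4.54 CPM at week 18. All 5 animals were higher, by 0.54 to 1.92, but the groups overlapped, since Z15228 began above the week 18 level of the other 4. The log2 fold change was 1.33 ± 0.26 (SE, adjusted p = 0.0599). At week 12 the mean was 5.61 CPM and the log2 fold change 0.49, and week 18 against week 12 gave 0.84 ± 0.25 (adjusted p = 0.9998).

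*TCN2*, which encodes the vitamin B12 carrier transcobalamin, was at 26.8, 67.9, 21.5, 20.5 and 25.3 CPM and then at 39.0, 118, 39.9, 31.6 and 40.2 CPM. Its change was the more even, at 0.54 to 0.88 in each animal (0.70 ± 0.14, adjusted p = 0.0830). At week 12 its log2 fold change was 0.14, and week 18 against week 12 gave 0.56 ± 0.14 (adjusted p = 0.9998). *TMEM176A*, a membrane protein gene of myeloid cells, was also higher by at least 0.53 in every animal (1.22 ± 0.40, adjusted p = 0.584). It was at 0.119 to 2.26 CPM before and 1.23 to 4.39 CPM after, on only 1 to 22 counts per library before and 11 to 36 after.

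The median log2 fold change was higher in the monocyte list than in the macrophage list. Of 23 macrophage genes of lysosomes and lipid handling, 4 were higher at an unadjusted p of 0.05, against 2.07% of all features. They were *CHIT1*, *TCN2*, *GPNMB* and *TREM2*. In 5 of 5 animals 3 were higher, against 3.04%, and the median log2 fold change was 0.04. The list was chosen with earlier results of these data known. *CHIT1* and *TCN2* had already been named by the study or those results, so these counts are no separate support. *GPNMB*, a lysosomal glycoprotein of macrophages, was higher in 5 of 5 (0.73 ± 0.22, adjusted p = 0.536). *TREM2*, a lipid-sensing receptor, was higher in 4 of 5 (0.94 ± 0.31), on 10 to 47 counts per library.

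Of 20 monocyte genes, 15 had a positive log2 fold change, and the median was 0.24. At an unadjusted p of 0.05, 2 were higher and 1 lower, against 2.07% and 3.78% of all features. In 5 of 5 animals 3 were higher, against 3.04%. The median change was 0.49, 0.38, 0.31, -0.16 and 0.14 in the 5 animals. *CD14*, the lipopolysaccharide co-receptor, was at 569, 868, 237, 538 and 405 CPM and then at 1104, 1177, 496, 486 and 664 CPM, higher in all but Z15303 (0.60 ± 0.20, adjusted p = 0.589). *CD33* was higher in 5 of 5 (0.53 ± 0.16, adjusted p = 0.551), and *MS4A7* was lower in 4 of 5 (-0.45 ± 0.16). *S100A9*, an alarmin of monocytes and neutrophils, was higher in 5 of 5 (0.54 ± 0.29, adjusted p = 0.856). The summed level of the 20 monocyte genes was 4267 to 7397 CPM before and 5027 to 8052 CPM after. Of 11 granulocyte genes, 8 had a positive log2 fold change and 2 were higher in 5 of 5 animals, against 3.04%. None of the 11 had an unadjusted p under 0.05. Their median log2 fold change of 0.47 was the highest of the 28 lists, with a median change of 0.01, 0.86, 0.45, 0.36 and 0.01 in the 5 animals, and their summed level was 77.6 to 220.0 CPM before and 88.3 to 291 CPM after. The part of these cell types in the changes of *CHIT1* and *TCN2* was not tested.

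Other genes higher in 5 of 5 animals had larger p-values than *CHIT1* and *TCN2*. *CEBPD*, a transcription factor of myeloid cells and inflammation, was at 169, 168, 105, 179 and 152 CPM before and at 217, 242, 189, 215 and 232 CPM after, with no overlap (0.52 ± 0.15). *POLR1C*, a subunit shared by RNA polymerases I and III, was at 16.2 to 21.4 CPM before and 23.6 to 27.2 CPM after, also with no overlap (0.40 ± 0.12, adjusted p = 0.512). *RASSF4*, *TMEM204*, *DAGLB*, *ASPSCR1*, *TMEM86A* and *FAM161B* had log2 fold changes of 0.31 to 0.73 and adjusted p-values of 0.430 to 0.559. In *RASSF4* and *TMEM86A* the change in Z15303 was no more than 0.03. *CRMP1*, *PLLP*, *ZSWIM3*, *KREMEN1* and *CA11* were higher by at least 0.36 in each animal, with log2 fold changes of 0.57 to 0.82 and adjusted p-values of 0.823 to 0.898. ENSMNEG00000042055 had the smallest p of the higher features without a symbol (0.49 ± 0.12, adjusted p = 0.248).

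**Figure D4:**
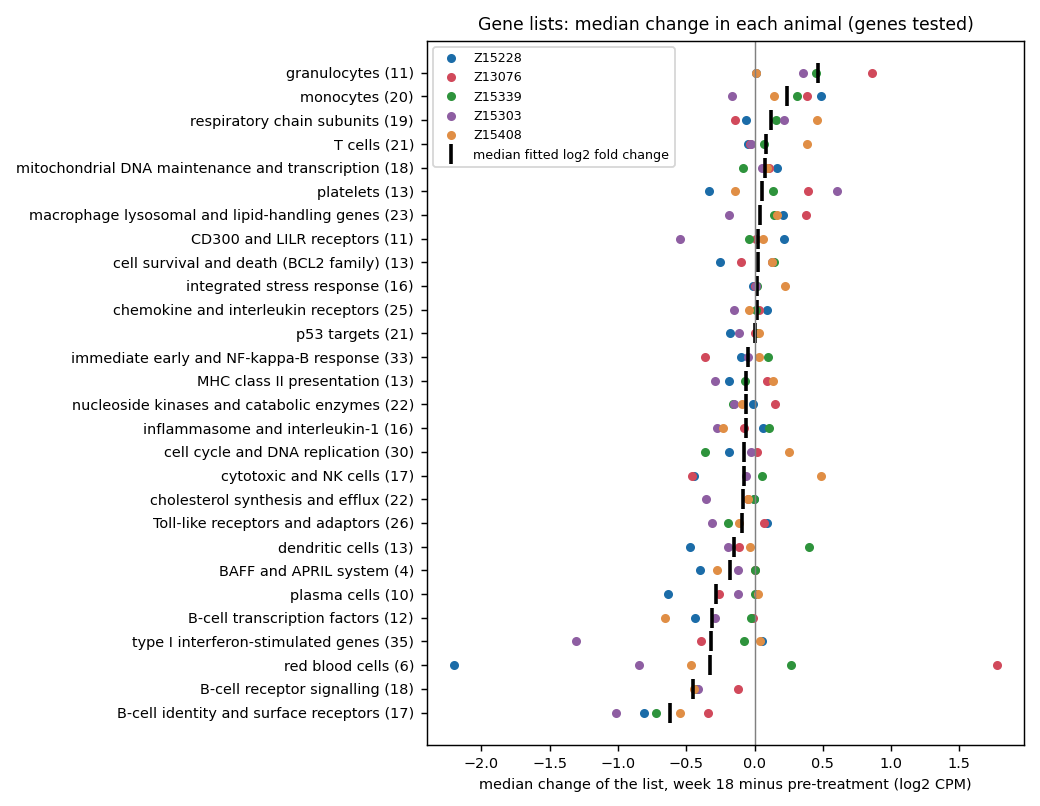
The x axis gives the median change of each gene list from pre-treatment to week 18 in log2 CPM, with coloured points for animals and a black bar for the median fitted log2 fold change. The number of genes tested is in brackets. The B-cell surface receptor and receptor signalling lists are below 0 in all 5 animals, whereas the interferon list is at -1.31 in Z15303 and -0.39 to 0.05 in the other animals, and the red blood cell list spreads from -2.20 to 1.78.

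Interferon-stimulated genes were lower in a less uniform way. Of 35 tested, 33 had a negative log2 fold change, with a median of -0.32. At an unadjusted p of 0.05, 7 were lower, against 3.78% of all features. Only 1 was lower in 5 of 5 animals, against 3.49%. The median change was 0.05, -0.39, -0.08, -1.31 and 0.04, so that Z15303 stood apart. *HERC5*, an ISG15 ligase, was at 4.52, 8.46, 10.39, 32.6 and 10.2 CPM and then at 4.66, 6.35, 5.15, 7.80 and 5.87 CPM (-0.94 ± 0.30, adjusted p = 0.559). *MX1*, an antiviral GTPase, was at 642 CPM before and 139 CPM after in Z15303, against 73.0 to 192 and 85.3 to 157 CPM in the other animals (-0.62 ± 0.32). *IFI6* went from 1369 to 306 CPM in that animal. *STAT2*, part of the factor that drives these genes, was lower in 5 of 5 animals, by 0.01 to 0.63 (-0.33 ± 0.11, adjusted p = 0.584).

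Lists of the other cell types of blood had medians that differed in sign between animals. Of 21 T-cell genes, 17 had a positive log2 fold change with a median of 0.08. At an unadjusted p of 0.05, 2 were higher, against 2.07% of all features. These were *CCR7*, the homing receptor of naive T cells (0.39 ± 0.13, higher in 5 of 5), and *CD6* (0.28 ± 0.11, higher in 4 of 5). Of 17 cytotoxic and NK cell genes, 15 had a negative log2 fold change with a median of -0.08. At an unadjusted p of 0.05, 2 were lower, *KLRB1* (-0.48 ± 0.19) and *NCR1* (-0.56 ± 0.23), and 1 was higher, *NCAM1* (0.42 ± 0.15). The shares of all features were 3.78% and 2.07%. None of these genes moved the same way in 5 of 5 animals. Of 13 dendritic cell genes, 2 were lower and 1 higher at an unadjusted p of 0.05, against the same shares. *TCF4*, given above with the B-cell factors and also a factor of plasmacytoid dendritic cells, was lower in 5 of 5 animals. *ITGAX* (-0.48 ± 0.16) was lower in 4 of 5. *CLEC10A* (0.73 ± 0.33) was higher in 4 of 5, with as few as 2 counts in a library. No platelet or red blood cell gene reached an unadjusted p of 0.05. The median change of the 13 platelet genes was -0.33, 0.39, 0.14, 0.61 and -0.14 in the 5 animals, and that of the 6 red blood cell genes was -2.20, 1.78, 0.27, -0.85 and -0.47.

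For genes linked to the metabolism and possible toxicity of nucleoside analogues, the list medians of the log2 fold change were from -0.08 to 0.12. Of all features, 5.85% had an unadjusted p under 0.05. A small number of such genes in a list does not show that its genes were unchanged. Of 22 nucleoside kinases and catabolic enzymes, 1 had an unadjusted p under 0.05, *CMPK2*, which is also interferon-stimulated (-0.82 ± 0.36, lower in 3 of 5). None of 18 genes for the upkeep and transcription of mitochondrial DNA did, with a median log2 fold change of 0.08, and none of 19 respiratory chain subunits, with a median of 0.12 and 16 of 19 positive. Of 30 cell cycle and replication genes, *CDC6* alone did (-0.97 ± 0.46, lower in 5 of 5). Among 21 p53 targets, 3 were lower and 1 higher at that level, against 3.78% and 2.07% of all features. These included *ZMAT3* (-0.32 ± 0.15, lower in 5 of 5), the death receptor *FAS* (-0.24 ± 0.11) and *BBC3*, which encodes the death factor PUMA (0.36 ± 0.14, higher in 4 of 5). *BCL2L11*, which encodes the death factor BIM, was lower in 5 of 5 animals (-0.44 ± 0.13, adjusted p = 0.464). *NUPR1*, of the integrated stress response, was higher in 5 of 5 (0.53 ± 0.19, adjusted p = 0.642). Of 22 cholesterol genes, *ABCA1*, the lipid exporter, was lower in 4 of 5 (-0.50 ± 0.20).

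Genes of innate sensing were likewise mixed. Of 26 Toll-like receptor and adaptor genes, 17 had a negative and 9 a positive log2 fold change. At an unadjusted p of 0.05, against 3.78% and 2.07% of all features, 2 were lower, the kinases *TBK1* (-0.40 ± 0.15) and *IRAK3* (-0.32 ± 0.15), and 1 was higher, *CD14*, with adjusted p-values of 0.589 to 0.843. Of 16 inflammasome genes, *NLRP12* alone had an unadjusted p under 0.05 (0.41 ± 0.16, adjusted p = 0.780). None of 13 genes of MHC class II presentation reached an unadjusted p of 0.05, nor did any of the genes named here outside *IGKV1OR2.108* pass the adjusted threshold.

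The leading genes had been taken from those that moved the same way in 5 of 5 animals. A shared direction in the animals with shared dates and the other 2 follows from that choice, and only the sizes are compared. The mean change of *MS4A1* was -1.44 in Z15339, Z15303 and Z15408 and -0.80 in the others, that of *IGKV1OR2.108* -1.18 and -1.82, that of *CHIT1* 1.20 and 1.45 and that of *TCN2* 0.72 and 0.66. In the 3 animals with shared dates alone, edgeR with the block called 7 features, all of them lower, namely *MS4A1*, *BLK*, *VAV2*, *ATP13A3*, *CD93*, *PDK4* and *TBC1D9*, with adjusted p-values of 0.0325 to 0.0491. The smallest was shared by *BLK*, *CD93*, *PDK4* and *TBC1D9*. Over all 5 animals, *ATP13A3*, *CD93*, *PDK4* and *TBC1D9* were lower in 3 or 4 of 5, with adjusted p-values of 0.435 to 0.932. In the 3 animals, *IGKV1OR2.108* was not called (adjusted p = 0.0735). Within each set the date in the library names changed with the time point, so the 2 cannot be told apart.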

How the data were processed

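PBMC RNA of 5 macaques at 3 time points was amplified with SMART-Seq v4 and prepared with Nextera XT. The authors aligned the reads with STAR 2.7.9a to the *M. nemestrina* genome, and the deposited file holds whole-number read counts per gene with no scaling. Strand setting and genome build name are not given in the sources used here. Features keep the names of the table, and no sequence could be matched to them.

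Counts of all 15 libraries were scaled by TMM, filtered with filterByExpr (minimum count 10) and tested with edgeR 4.0.16 in R 4.3.3 (glmQLFit and glmQLFTest, two-sided, time point plus animal, week 18 minus pre-treatment), with Benjamini-Hochberg adjustment over 12880 features and a threshold of 0.05. The SE was obtained from the fitted change and its F statistic (change over the root of F). Log2 CPM used a prior count of 2. The block follows the subject label, since each animal was sampled at each time. Libraries of 1 animal deviated together (mean r = 0.551 over 15 pairs, against -0.137 over 60 pairs from different animals and times), and the biological coefficient of variation was 29.3% without the block and 16.9% with it. On simulated counts for this comparison and 12880 features, 76% and 88% of 50 genes each at log2 changes of -1 and 1 were called, and 100% at -2 and 2. Whether these shares hold for the real counts was not tested. In the real counts 1 feature was called, and 59 of the features lower in 5 of 5 animals were below -1. Alternatives were DESeq2 1.42.0, limma-voom 3.58.1, no block, other scaling and filters, fewer libraries and leaving out each animal.

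The members and gene lists were chosen with earlier results of these data known. Named genes are those called, the 12 lower and 12 higher with the smallest p among those that moved 1 way in 5 of 5 animals, the 8 in each direction with the largest least change, up to 4 per list, and 9 set by name. *BLNK*, *BTK*, *PLCG2*, *SYK*, *CD40*, *FCRL1*, *FCRL3*, *FCRL5*, *IGKC*, *PHTF2*, *PDCD1LG2*, *DENND3*, *GAB1*, *TRIM25*, *IER2*, *IFI6*, *MX1*, *S100A9*, *ATP13A3*, *CD93*, *PDK4* and *TBC1D9* were chosen after their values were seen. The result for 1 gene is not reported here.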

Additional observations from a re-analysis of the deposited data

Results flagged for a closer look

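Single animals stood apart from the other 4 in 14 of 224 groups of 5 values examined, by the gap to the nearest value relative to the range of the group. Chance alone marks about 1 in 20 groups. *TCN2* in Z13076 was at 67.94 CPM before treatment, against 20.53 to 26.81 in the others, and at 117.5 CPM at week 18, against 31.57 to 40.18, so that animal was high at both times. Before treatment, Z13076 was at 6.433 CPM for *PDK4* (others 32.51 to 58.02), Z15339 was at 126.1 CPM for *TBC1D9* (57.93 to 70.8) and at 14.56 CPM for *CD33* (others 35.78 to 47.6), and Z15303 was at 26.63 CPM for *PDCD1LG2* (others 13.43 to 15.41). Z15408 was at 47.37 CPM for *ASPSCR1* (others 62.43 to 67.69), at 235.8 for *SYK* (312.6 to 325.9) and at 58.1 for *TBK1* (38.49 to 41.07) before treatment. At week 18, Z15303 was at 53.91 CPM for *PLCG2* (others 90.19 to 93.65). Of the list medians of the change, receptor signalling in Z13076 was at -0.1246 (others -0.4418 to -0.4147), T cells in Z15408 at 0.3821 (-0.04621 to 0.06825), the integrated stress response in Z15408 at 0.2207 (-0.01022 to 0.02063), and cholesterol genes in Z15303 at -0.3539 (-0.04718 to -0.007262).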

How the results depend on the processing

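The number of features called (1, lower) depended on the method. Without the replicate block it was 0, and with the block it was 17 in the 10 libraries alone, 51 by DESeq2, 43 by DESeq2 on the features edgeR tested, 18 by limma-voom, 10 by library size without TMM, 136 without the low-count filter and 7 in the 3 animals with shared dates. Leaving out 1 animal gave 0 to 17 (0 without Z15228, Z15339 or Z15303, 17 without Z13076 and 3 without Z15408). The cause was not tested. Wherever features were called, most or all were lower. It was 1 with DESeq2's size factors or a mean of 50 or more counts. Features lower in 5 of 5 animals numbered 331 to 605 and features higher in 5 of 5 animals 302 to 484 over the 5 alternatives tried for them. Of 98 named genes, 52 that the main fit did not call were called in at least 1 alternative. Without the low-count filter 49 of these were called, and in any other alternative at most 25. Many of the 98 had been named for a small p. Only 1 changed sign, where the log2 fold change of NCR1 was 0.08255 in the 3 animals with shared dates. At 5886482 to 10379572 counts per library, *FCRL2* and *NR4A3*, with 6 or fewer counts at week 18, have a wide error. *SSPN*, *EBF1*, *POU2AF1*, *CDC6* and ENSMNEG00000038177 had only 1 or 2 counts in at least 1 week 18 library, so their changes are uncertain too. Of the higher genes, *TMEM176A*, *CLEC10A* and *KREMEN1* had as few as 1, 2 and 4 counts in a pre-treatment library, and the same holds for them.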
